A study of Mus musculus with 4 samples.

Results

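Col3a1, Col5a1, Col5a2, Col6a3, Col16a1, Postn, Fap, Prrx1 and Podn are genes of collagens and of the stroma around them, 9 of the 4099 genes in the count table. They were chosen by symbol, all 9 were present, and their levels were followed over the 23 cell type names of the deposited annotation. Collagens and their partners form the fibrous scaffold of a tumour, and fibroblasts make most of it. Type III and type V collagen chains co-assemble into fibrils, type VI collagen forms beaded microfibrils near cells, and periostin (Postn) links collagen to other matrix proteins. Fibroblast activation protein (Fap) is a cell-surface protease of activated stroma, and Prrx1 is a homeobox transcription factor of mesenchymal cells.

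The tumours were grown in BALB/c mice from the mouse mammary carcinoma line 4T1, which was either wild-type (samples CON1 and CON2) or Mif-depleted (sgMif1 and sgMIif2). Mif encodes a cytokine that acts on macrophages. All 4 samples combined 3 dissociated tumours, which were sorted for CD45-positive, propidium iodide-negative cells and profiled with 10x Genomics chemistry. How Mif was depleted, whether the lines are single clones, and how old the mice were was not given in the sources used here. CD45 marks leukocytes, so fibroblasts were not the cells the sort was set for.

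Barcodes end in a suffix from 1 to 4, and no label or header ties a suffix to a sample. Each suffix was therefore treated as 1 sample of unknown group, and wild-type and Mif-depleted tumours were not compared. Counts of unique molecular identifiers (UMIs, single captured molecules) covered all 13162 cells of suffix 1, with 29567302 UMIs, and 3221 of the 11961 annotated cells of suffix 2, with 8578852 UMIs. The fibroblast name held 140 of those cells in suffix 1, with a median of 2301 counted UMIs, and 47 in suffix 2, with a median of 3782. Suffixes 1 and 2 shared 35 barcode sequences, 0 of them among cells of the fibroblast name. A level below is the number of UMIs per 10000 counted UMIs of the 4099 genes, summed over the cells of a name. Brackets hold exact 95% intervals, which cover counting error only. The study has 2 samples per group, but with no suffix tied to a sample no test between conditions could be made, and no p-value was computed.

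The genes lie on chromosomes 1 to 4 of GRCm38, by the GENCODE M21 annotation. Col3a1 (chr1:45311538-45349706, plus strand) and Col5a2 (chr1:45374321-45503282, minus strand) are neighbours, with 24614 bases between them. Col6a3 (chr1:90765923-90843971, minus) and Prrx1 (chr1:163245119-163313710, minus) are on the same chromosome, Col5a1 (chr2:27886425-28039514, plus) and Fap (chr2:62500943-62574075, minus) on chromosome 2, Postn (chr3:54361109-54391037, plus) on chromosome 3, and Col16a1 (chr4:130047840-130099283, plus) and Podn (chr4:108014791-108096445, minus) on chromosome 4. The annotated span of Podn overlaps that of Scp2, a lipid carrier gene on the same strand, over 52607 bases. The RefSeq start sites of Podn, 108030986 and 108031954, lie below the start of the Scp2 span at 108043839. Transcripts from those sites thus do not reach Scp2. Scp2 stood at 6.87 in the fibroblast name and 6.56 in all other cells of suffix 1.

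RefSeq promoter windows on GRCm38.p6 were matched for 7 of the 9 genes, and Col5a2 and Fap had no entry. The 4 sequences below are the 250 bases before the start site, read 5′ to 3′ on the gene's strand, with each CG dinucleotide in capitals. Col3a1 (chr1:45311288-45311537, plus) and Postn (chr3:54360857-54361106, plus) are shown because their UMIs lay almost all in the fibroblast name. Col5a1 (chr2:27886175-27886424, plus) and Col16a1 (chr4:130047590-130047839, plus) are shown because they were also counted in cells named epithelial.
Col3a1: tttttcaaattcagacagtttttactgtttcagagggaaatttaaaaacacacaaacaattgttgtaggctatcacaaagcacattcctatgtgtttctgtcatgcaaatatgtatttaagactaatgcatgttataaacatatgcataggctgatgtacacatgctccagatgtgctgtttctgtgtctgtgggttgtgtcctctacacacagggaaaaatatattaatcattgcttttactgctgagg
Postn: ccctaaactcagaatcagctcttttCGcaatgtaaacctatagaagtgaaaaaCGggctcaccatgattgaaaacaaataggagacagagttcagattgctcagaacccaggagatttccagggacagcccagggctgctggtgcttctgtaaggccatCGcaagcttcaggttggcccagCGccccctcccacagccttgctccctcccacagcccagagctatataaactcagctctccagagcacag
Col5a1: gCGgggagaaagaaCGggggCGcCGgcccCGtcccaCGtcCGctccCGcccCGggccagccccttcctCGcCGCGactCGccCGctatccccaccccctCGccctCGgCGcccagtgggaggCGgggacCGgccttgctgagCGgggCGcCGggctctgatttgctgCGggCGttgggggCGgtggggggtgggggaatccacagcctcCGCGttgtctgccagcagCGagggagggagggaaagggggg
Col16a1: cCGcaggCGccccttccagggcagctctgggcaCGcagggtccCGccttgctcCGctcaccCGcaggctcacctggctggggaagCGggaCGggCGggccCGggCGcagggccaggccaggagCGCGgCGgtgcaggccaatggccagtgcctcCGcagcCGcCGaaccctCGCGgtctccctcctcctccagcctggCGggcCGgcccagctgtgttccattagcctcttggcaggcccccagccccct

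The printed windows of Col3a1 and Postn held 0 and 4 CG dinucleotides, those of Col16a1 and Col5a1 21 and 28. Postn had a second window, for another start site, with 3. Over 32851 RefSeq promoter windows of 250 bases the median was 6, and 16.3% held at least as many as Col16a1 and 7.61% at least as many as Col5a1. Podn, with UMIs almost all in the fibroblast name, had 2 windows, with 7 and 32. Searched on both strands, the letters TATAAA occurred in the printed windows of Col3a1 and Postn, not in the other window of Postn, and in 12.4% of all windows. GGGCGG occurred in those of Col5a1 and Col16a1, in 1 of the 2 of Podn, and in 32.7% of all windows, CCAAT in that of Col16a1 and in 33.8%, and TAATTA in that of Prrx1 and in 4.84%. These matches describe letters only.

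All 9 genes were far higher in the fibroblast name than in all other cells pooled, in both suffixes. A gene was called higher where the interval of the ratio of levels lay above 2-fold, given at least 30 UMIs over both sides. All 9 were so called in suffix 1, where 17.3% of 3747 tested genes were, and all 9 in suffix 2, where 11.6% of 3293 were. The median log2 ratio of the 9 was 11.79 in suffix 1 and 10.51 in suffix 2, beside 0.24 and 0.02 over all tested genes. Cells of the name held 97.7% of the 40690 UMIs of these genes in suffix 1 while making up 1.06% of the cells. In suffix 2 they held 97.5% and made up 1.46%. Col3a1 alone gave 28718 of the 40690 UMIs in suffix 1, so sums over the genes rest largely on it.

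**Figure D1:**
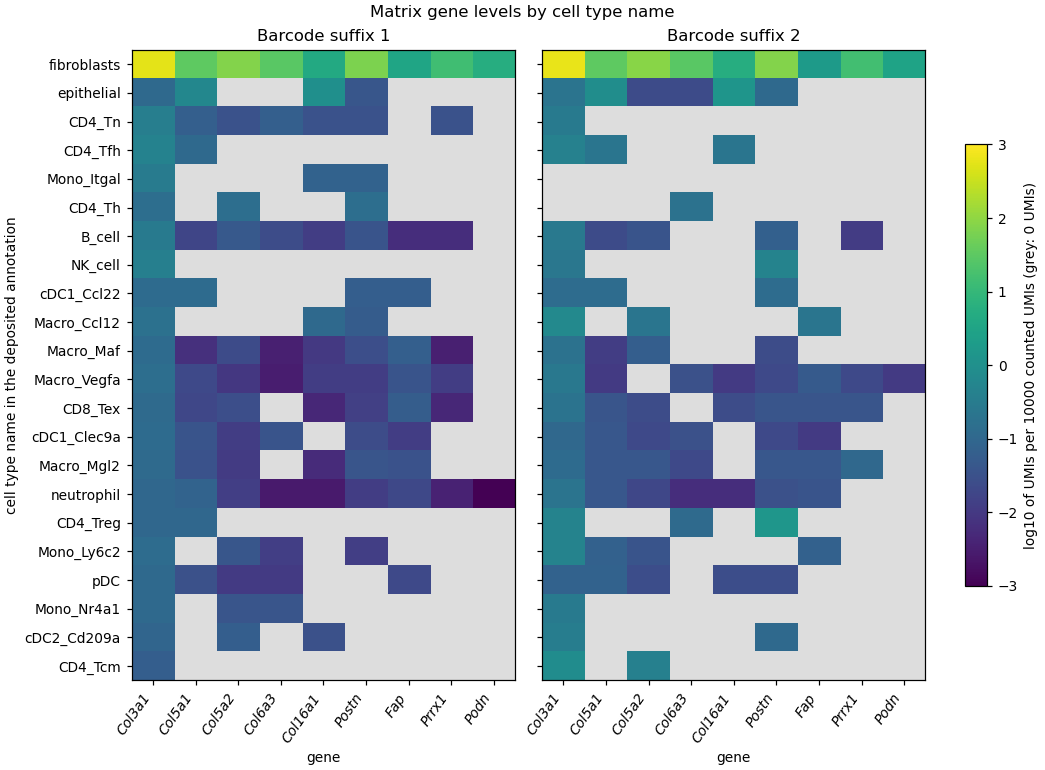
Levels of the 9 genes (columns) in 22 cell type names (rows), for barcode suffix 1 (left) and 2 (right), as log10 of UMIs per 10000 counted UMIs, with grey for 0 UMIs. The fibroblast row is the brightest in every column, Col5a1 and Col16a1 stand out in the epithelial row, and most other squares rest on a few UMIs.

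Among the fibrillar chains, Col3a1, the single chain of type III collagen, stood at 574.5 in the fibroblast name and 0.130 in other cells of suffix 1, a 4407-fold ratio [3982, 4890]. In suffix 2 it stood at 640.3 and 0.213. Col5a2, a chain of the type V collagen that seeds fibrils, stood at 78.3 against 0.0175 in suffix 1 and 86.0 against 0.0286 in suffix 2. Its ratios of 4461-fold and 3007-fold were close to those of its neighbour Col3a1, 4407-fold and 3002-fold. This was not particular to the adjacent pair, since Col6a3 had ratios of 4411-fold [2814, 7349] and 2233-fold [1238, 4501]. Col5a1, the partner chain of Col5a2, stood at 31.9 against 0.0674 in suffix 1 and 33.2 against 0.0774 in suffix 2. Its 473-fold ratio [408, 552] in suffix 1 was smaller than that of Col5a2, with intervals that did not overlap.

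Of the other collagens, Col6a3, the long chain of type VI collagen, stood at 28.8 against 0.00654 in suffix 1 and 29.3 against 0.0131 in suffix 2. Col16a1, a fibril-associated collagen, had the smallest ratio of the 9, at 4.50 against 0.0464 in suffix 1 (96.9-fold [77.9, 121]) and 5.38 against 0.0774 in suffix 2 (69.5-fold [50.3, 96.5]). Postn, the periostin gene, stood at 64.7 against 0.0189 and, in suffix 2, at 76.5 against 0.0524. Podn, which encodes the small leucine-rich proteoglycan podocan, stood at 5.47 and 3.01 in the fibroblast name of suffixes 1 and 2. All other cells held 1 Podn UMI in each suffix, so its ratios of 15915-fold and 2529-fold have wide intervals, [2832, 630895] and [436, 101655].

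Prrx1, the only transcription factor of the group, stood at 14.6 against 0.00413 in suffix 1 and 15.3 against 0.0155 in suffix 2. Fap, the protease gene, stood at 3.30 against 0.0292 in suffix 1, a 113-fold ratio [86.4, 149], and at 1.88 against 0.0238 in suffix 2. Levels in the fibroblast name of Col5a1, Col6a3 and Prrx1 differed little between the suffixes, while those of Fap and Podn were lower in suffix 2. With 1 sample per suffix that difference has no replicate check.

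**Figure D2:**
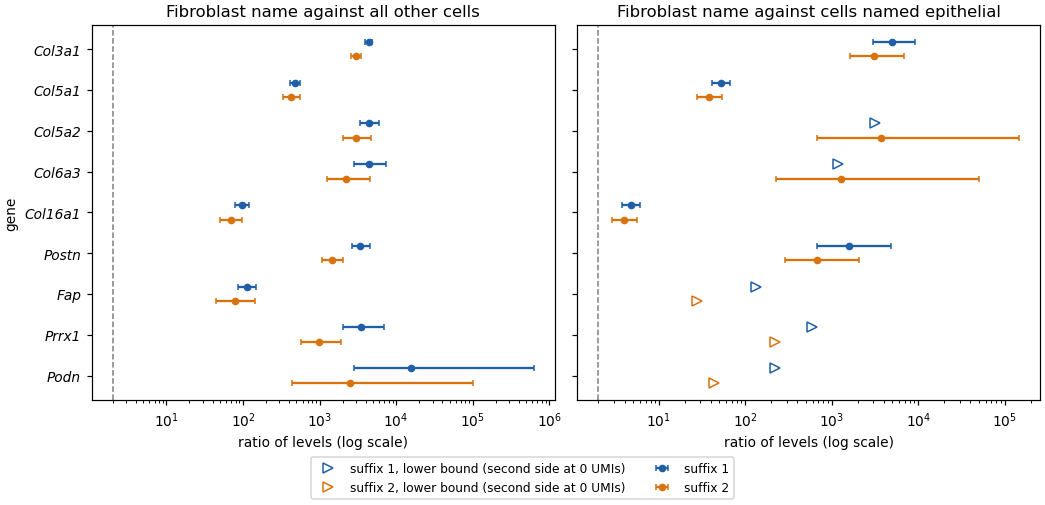
Ratio of the level in the fibroblast name to that in all other cells (left) and to that in cells named epithelial (right), on a log axis, with exact 95% intervals. Open triangles, labelled lower bounds, are ratios to a floor of 3 counts where epithelial cells had 0 UMIs, and the exact 95% lower limits are smaller. The dashed line marks 2-fold, which every interval lies above.

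The label was checked against marker lists. Of 6 measured fibroblast markers all were called higher in the name in both suffixes, but 4 of them are among the 9 genes. The other 2 were Serping1, a complement C1 inhibitor gene, at 57.6 against 0.00688 in suffix 1, and Fbn1, the fibrillin gene, at 25.1 against 0.0103. All 5 leukocyte markers were called lower in suffix 1 and in suffix 2, where 5.55% and 5.59% of all tested genes were. Among these, Ptprc, the gene of CD45 itself, stood at 3.55 against 20.7 in suffix 1 and at 1.88 against 18.3 in suffix 2. Macrophage markers were lower for 5 of 5 genes in both suffixes, and neutrophil markers for 9 of 9 in suffix 1 and 8 of 9 in suffix 2. Summed levels in the name were 14.4 and 2.96 for the macrophage list and 277 and 128 for the neutrophil list. T cell markers were lower for 5 of 7 and 6 of 7 genes, B cell markers for 4 of 5 and 2 of 5, osteoclast markers for 4 of 5 and 5 of 5, and epithelial markers for 2 of 6 and 2 of 4 tested. Markers of other non-leukocytes were in part higher. Endothelial markers were higher for 3 of 5 tested genes in suffix 1 and 4 of 5 in suffix 2, and mural markers for 1 of 2 in both, which was Rgs5. Adipocyte markers were higher for 2 of 2 and 1 of 1, Fabp4 in both suffixes and Lepr in suffix 1. Bone and cartilage markers were higher for 2 of 2 in suffix 1, Col11a1 and Alpl, and 0 of 1 in suffix 2. Of 3 muscle markers Des was higher in both suffixes and Ttn and Neb were not called. What part these cell types have in the matrix gene levels was not tested.

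Not every cell of the name carried the genes. At least 1 UMI of the 9 was present in 114 of 140 cells of suffix 1 (81.4% [74.0, 87.5]) and in 40 of 47 of suffix 2 (85.1% [71.7, 93.8]). Among leukocyte names, 5.25% of 12523 cells in suffix 1 and 8.87% of 3068 in suffix 2 held a UMI. Their medians were 1243 and 1695 counted UMIs. Thinned to 500 UMIs per cell, the share was 88.5% of 104 cells in the fibroblast name and 1.45% of 10820 in leukocyte names of suffix 1, and 89.2% of 37 and 2.29% of 2799 in suffix 2. In suffix 1 this left out 36 and 1703 shallower cells, and in suffix 2 it left out 10 and 269. The 26 and 7 cells of the fibroblast name without any had medians of 314 and 466 counted UMIs. At the other end, 18 cells of suffix 1 and 8 of suffix 2 held all 9 genes, with medians of 6464 and 8227 counted UMIs. The share with a UMI was 55.6% in the 36 cells of suffix 1 under 500 counted UMIs and 95.9% in the 73 cells with 2000 or more, and the summed level was 162 in the former and 853 in the latter. In suffix 2 the shares were 60.0% of 10 cells and 96.7% of 30, with levels of 110 and 946. Depth and level thus moved together, and what part depth has in the difference was not tested.

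The UMIs were spread unevenly over cells. The 14 richest cells of the name in suffix 1 and the 5 richest in suffix 2 held 42.2% and 48.7% of the members' UMIs. Podn was the most concentrated, with 78.5% and 85.7% of its UMIs in its own 14 and 5 richest cells, and was present in 38 of 140 and 11 of 47 cells. Col3a1 was the most widely present, in 103 of 140 and 39 of 47 cells, with a median of 33.5 and 83 UMIs per cell and a highest count of 1577 and 1984.

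A small set of cells under the fibroblast name had endothelial markers and almost no UMIs of the 9 genes. In suffix 1, 7 cells held 5 or more UMIs of Tie1, Selp, Egfl7, Emcn and Prox1, genes of blood and lymphatic vessel lining. S1pr1, the other measured gene of the endothelial list, was left out of this count because lymphocytes express it, and the whole list was highest in CD4_Tn cells in both suffixes. Those 7 cells had a median of 1706 counted UMIs and 0 UMIs of the 9 genes, while the other 133 stood at 839. In suffix 2, 5 such cells with a median of 1863 counted UMIs held 1 UMI, of Col3a1, and the other 42 stood at 930. Fabp4, a fatty acid carrier known from adipocytes and capillary endothelium, stood at 66.8 in the 7 cells and 17.7 in the other 133, and at 689 and 6.07 in the corresponding cells of suffix 2. The set was picked by markers after the data were seen, and without replicates it carries no test.

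Cells with 5 or more UMIs of Rgs5, a marker of pericytes, carried the genes at a different balance. There were 9 in suffix 1, at a summed level of 260 [238, 284] against 828 in the other 131, and 5 in suffix 2, at 319 against 956. Col3a1 stood at 162 against 591 in suffix 1 and at 192 against 692 in suffix 2. Col5a2 and Postn were also lower, at 27.2 against 80.3 and 22.4 against 66.3 in suffix 1, and at 23.6 against 93.1 and 27.8 against 82.1 in suffix 2. Prrx1 was near the level of the rest, at 12.8 against 14.6 and 18.4 against 15.0. Col6a3 stood at 18.7 against 29.2 in suffix 1 and at 40.9 against 27.9 in suffix 2. A single Rgs5 cell of suffix 2, with 11503 counted UMIs, held 351 of the set's 607 UMIs of the 9 genes. It held 55 UMIs of Col6a3 and 27 of Prrx1, so the suffix 2 values of these genes rest largely on 1 cell. Median counted UMIs were 2301 against 2335 in suffix 1 and 2604 against 4027 in suffix 2. The medians of suffix 1 hide a difference in range, since its deepest Rgs5 cell had 3411 counted UMIs and its deepest other cell 13179. What part depth has in these levels was not tested. Without replicates these sets carry no test.

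Leukocyte markers were also found in cells of the name. Those with 3 or more Ptprc UMIs, 24 cells in suffix 1 and 5 in suffix 2, stood at 741 and 1242 over the 9 genes, against 834 and 825 in the rest. The direction thus differed between the suffixes. The 5 cells of suffix 2 held 3630 UMIs of the 9 genes, where a single cell of the name held up to 2357. The 7 cells of suffix 1 with 5 or more UMIs of the C1q genes, which macrophages express, stood at 384 against 857. Cells with 20 or more UMIs of S100a8 and S100a9, the neutrophil calprotectin genes, stood at 698 (23 cells) against 856 in suffix 1 and 559 (4 cells) against 918 in suffix 2. These sets differed in depth from the rest. Median counted UMIs in suffix 1 were 5659 against 1363.5 for Ptprc, 7175 against 1896 for C1q and 6906 against 1583 for S100a8 and S100a9. In suffix 2 they were 4885 against 3349.5 for Ptprc and 3405 against 3782 for S100a8 and S100a9. What part depth has in these levels was not tested. Without any cell that passed 1 of these limits, or those for Rgs5, endothelial or epithelial markers, the level was 893 over 97 cells of suffix 1 and 967 over 31 of suffix 2.

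**Figure D3:**
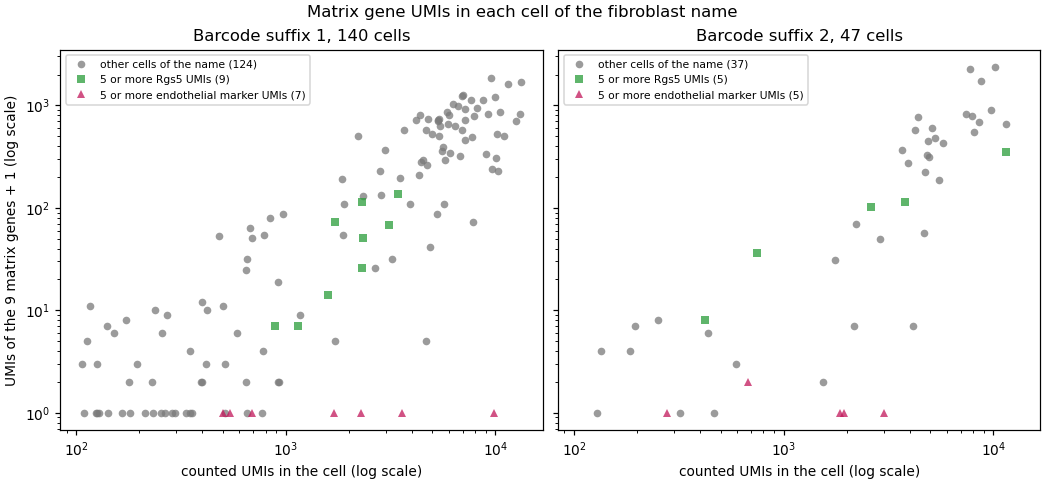
Each point is 1 cell of the fibroblast name, placed by its counted UMIs (log axis) and by its UMIs of the 9 matrix genes plus 1 (log axis), for suffix 1 (left, 140 cells) and 2 (right, 47 cells). Cells with 5 or more endothelial marker UMIs lie at or next to the bottom edge at any depth, while the 9 and 5 cells with 5 or more Rgs5 UMIs lie above it.

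Within the name the genes varied together across cells. Over cells with 500 or more counted UMIs, 104 in suffix 1 and 37 in suffix 2, Spearman's rho of the levels was above 0 for all 36 pairs in each suffix, with medians of 0.44 and 0.53. The cells of a suffix share 1 library, and rho of each gene's level with the cell's counted UMIs was itself between 0.26 and 0.53 in suffix 1 and between 0.44 and 0.79 in suffix 2. Col3a1 and Col5a1 had the highest value in suffix 1, 0.79, and Col5a2 and Postn in suffix 2, 0.79. Prrx1 and Podn had the lowest in both, 0.04 and 0.01. The 104 cells include all 7 of suffix 1 with 5 or more endothelial marker UMIs, which held 0 UMIs of the genes. Most of the corresponding cells of suffix 2 are among its 37. What part these cells have in the rho values was not tested, so the values do not describe fibroblasts alone.

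Some stromal genes had different values with Podn and with Postn in those cells. Dpt, the gene of the matrix protein dermatopontin, had a rho of 0.73 with Podn and -0.0047 with Postn in suffix 1, and of 0.50 and 0.17 in suffix 2. Serping1 had a rho of 0.67 with Podn and 0.13 with Postn in suffix 1, and of 0.45 and 0.29 in suffix 2. Grem1, the gene of the BMP antagonist gremlin, had a rho of -0.10 with Podn and 0.19 with Postn in suffix 1, and of -0.20 and 0.31 in suffix 2. Fbn1 did not follow this, with a rho of 0.33 with Podn and 0.55 with Postn in suffix 1 and of 0.59 with both in suffix 2. Its values with Col3a1 were 0.76 and 0.80. No difference between 2 such values was tested. These are descriptions over cells of 1 library each, many of which hold few UMIs of Podn.

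**Figure D4:**
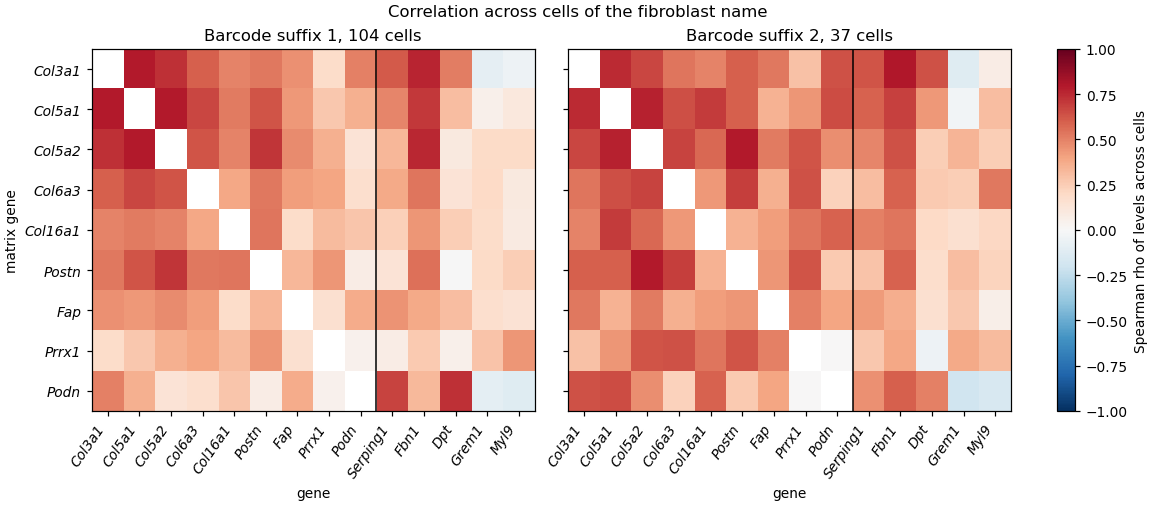
Spearman's rho of levels across cells of the fibroblast name with 500 or more counted UMIs, between the 9 matrix genes and, right of the line, 5 other stromal genes, for suffix 1 (104 cells) and suffix 2 (37 cells). Squares between Col3a1, Col5a1 and Col5a2, and that of Col3a1 with Fbn1, are among the darkest. In suffix 1, squares of Col16a1, Fap, Prrx1 and Podn with the other matrix genes are paler. The Podn row differs from the Postn row in the Dpt and Grem1 columns.

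Cells named epithelial came second in summed level, at 1.72 in suffix 1 and 2.60 in suffix 2, against 806 and 891 in the fibroblast name. Col5a1 and Col16a1 made up most of it. Against epithelial cells all 9 genes were called higher in the fibroblast name in both suffixes, where 12.2% of 2743 and 10.6% of 1994 tested genes were. At a 4-fold limit 8 remained, the exception being Col16a1, with ratios of 4.72 [3.76, 5.96] and 3.96 [2.84, 5.56]. Col5a2, Col6a3, Fap, Prrx1 and Podn had 0 UMIs in the 499 epithelial cells of suffix 1. Against a floor of 3 counts over those cells, their ratios in the fibroblast name were 3175-fold, 1170-fold, 134-fold, 591-fold and 222-fold. These ratios are not lower limits. The exact lower limits were smaller, at 2581-fold, 950-fold, 108-fold, 480-fold and 179-fold.

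Against the pooled leukocyte names, 2 of the 6 genes with enough UMIs were called higher in epithelial cells of suffix 1, where 17.9% of 3624 tested genes were, and 2 of 4 in suffix 2, where 9.64% of 3206 were. Both were collagens, Col5a1 and Col16a1. Col5a1 stood at 0.608 in epithelial cells and 0.0438 in leukocyte names of suffix 1 (13.9-fold [10.3, 18.7]), and at 0.875 and 0.0339 in suffix 2. Col16a1 stood at 0.953 and 0.00682 in suffix 1 (140-fold [85.6, 240]), and at 1.36 and 0.00754 in suffix 2. Col3a1, by contrast, stood at 0.115 in epithelial cells and 0.131 in leukocyte names of suffix 1. At least 1 UMI of Col16a1 was present in 77 of the 499 epithelial cells (15.4%), with a median of 826 counted UMIs, beside 19 of 12523 leukocyte-named cells (0.152%), with a median of 1243. Thinned to 500 UMIs per cell the shares were 4.37% of 343 epithelial cells and 0.0739% of 10820, with 156 and 1703 shallower cells left out. Cells of the epithelial name thus held 32.5% of all Col16a1 UMIs of suffix 1 and 35.8% of those of suffix 2.

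In leukocyte names the genes were near the limit of detection. Summed levels ran from 0.0623 in CD4_Tcm to 0.630 in CD4_Tn in suffix 1. In suffix 2, over names with at least 20 cells, they ran from 0.181 in CD4_Th to 2.05 in CD4_Treg, where 11 of 17 UMIs were Postn in a single cell. Of 22 neighbours in the order of names, the fibroblast and epithelial names and the epithelial and CD4_Tn names were apart beyond counting error in suffix 1, and only the first of these pairs in suffix 2. Of leukocyte-named cells, 0 of 12523 in suffix 1 held 10 or more UMIs of the 9 genes, with an exact upper limit of 0.0295%, and 1 of 3068 did in suffix 2. In the fibroblast name 86 of 140 and 29 of 47 cells held 10 or more.

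Free RNA taken up with a droplet can add UMIs to cells that do not make a transcript, and its part in the counts of leukocyte and epithelial names was not tested. Set against Col3a1, 4 of the genes stood in leukocyte names near the ratio they had in the fibroblast name of suffix 1. Col5a2 had 13.6 UMIs per 100 of Col3a1 in the fibroblast name and 14.0 in leukocyte names (odds ratio 1.03 [0.75, 1.38]). Col6a3 had an odds ratio of 1.04 [0.62, 1.65], Postn 1.22 [0.89, 1.64] and Prrx1 1.30 [0.66, 2.31]. In suffix 2 Postn and Prrx1 were above it, at 1.92 [1.31, 2.75] and 3.19 [1.65, 5.70], with 11 of 39 Postn and 5 of 13 Prrx1 UMIs in 1 cell each. B cells, with 47 Col3a1 UMIs in suffix 1, had intervals that included the fibroblast ratio for every one of the other 8 genes. Each of those genes had at most 8 UMIs there, so the intervals were wide, for Fap 3.70 [0.091, 21.9]. They cannot show that the B cell ratios were the same.

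Fap, Col5a1 and Col16a1 had higher ratios to Col3a1 in leukocyte names than in the fibroblast name, in both suffixes. Fap had 0.575 UMIs per 100 of Col3a1 in the fibroblast name and 23.3 in leukocyte names, an odds ratio of 40.5 [30.1, 54.0] in suffix 1 and 39.9 [21.4, 72.8] in suffix 2. In the 5 macrophage names together it reached 45 UMIs beside 119 of Col3a1 in suffix 1 (odds ratio 65.7 [44.0, 96.8]) and 8 beside 55 in suffix 2 (49.3 [18.9, 115]). The 45 UMIs lay in 36 of 2136 cells (1.69%), with a median of 3620 counted UMIs, beside 0 of 499 epithelial cells, with a median of 826. Neutrophils of suffix 1 had 22 Fap UMIs in 22 cells (odds ratio 35.7 [20.9, 58.6]). After thinning to 500 UMIs the macrophage share was 0.246%, or 5 cells of 2029, beside 0 of 343 epithelial cells (exact upper limit 1.07%), so that the macrophage share lay below what the epithelial cells could show. A single macrophage-named cell held 7 Fap UMIs.

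Col5a1 had 5.55 UMIs per 100 of Col3a1 in the fibroblast name of suffix 1 and 81.3 in neutrophils, with 87 UMIs beside 107 (odds ratio 14.6 [10.9, 19.7]). These lay in 69 of 5712 neutrophils (1.21%), at most 3 in a cell. In suffix 2, neutrophils held 7 UMIs beside 33 (odds ratio 4.09 [1.52, 9.45]). Col16a1 had an odds ratio of 6.64 [3.88, 10.8] in leukocyte names of suffix 1, on 19 UMIs, and 4.20 [1.48, 9.65] in suffix 2, on 6. In epithelial cells of suffix 1, Col5a1 and Col16a1 outnumbered Col3a1, with 74 and 116 UMIs beside 14.

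**Figure D5:**
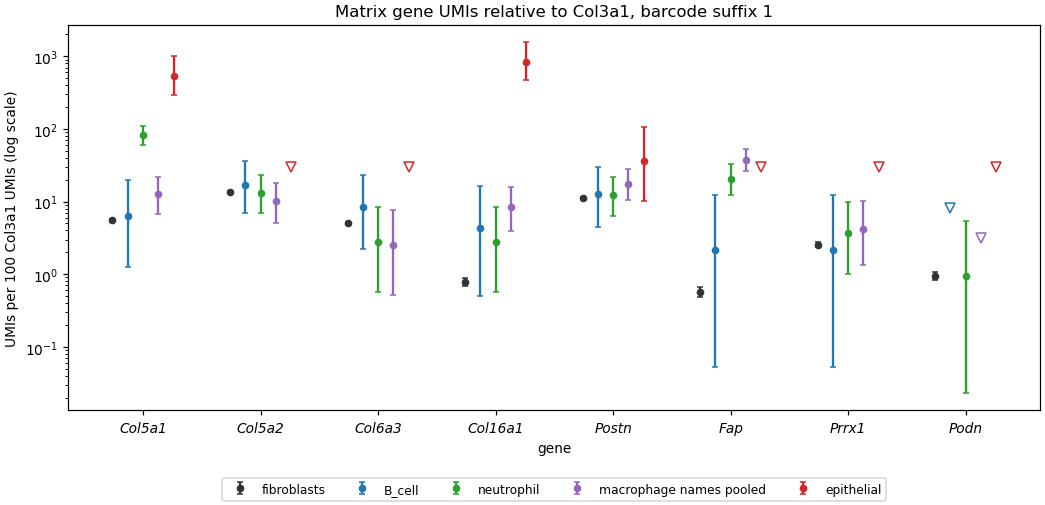
UMIs of 8 matrix genes per 100 UMIs of Col3a1 (log axis) in 5 sets of cells of suffix 1, with exact 95% intervals. Open triangles mark the upper limit where a gene had 0 UMIs. Neutrophils stand apart for Col5a1, neutrophils and macrophage names for Fap, and epithelial cells for Col5a1 and Col16a1, while most other points lie near the black fibroblast point.

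Fap has a close relative on the same chromosome, Dpp4, a membrane dipeptidase of lymphocytes and dendritic cells. It was not called in the fibroblast name, at 0.750 against 0.444 in suffix 1 and 0.807 against 0.471 in suffix 2. Dpp4 was highest in cDC1_Ccl22 dendritic cells in both suffixes, at 6.40 and 4.71, where Fap had 1 UMI in suffix 1 and 0 in suffix 2.

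The remaining matrix and stromal genes of the table were taken from 7 lists of 281 genes, of which 73 were measured and 64 are not among the 9. In suffix 1, 46 of these 64 were called higher in the fibroblast name and 5 lower, with a median log2 ratio of 5.78. In suffix 2, 38 of 54 with enough UMIs were higher and 5 lower, with a median of 4.67. Read against 17.3% and 11.6% of all tested genes, most of these genes were higher too, but their lists were drawn up with earlier results known.

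Among other collagens, 2 of 2 fibrillar chains were higher in suffix 1, Col11a1 at 1.70 against 0.000344 and Col27a1 at 2.27 against 0.176. Of 5 non-fibrillar chains 3 were higher, among them Col15a1, a basement membrane collagen, at 10.0 against 0.0526. Of the 4 genes of collagen biosynthesis, 3 were higher in both suffixes. These were Creb3l1, an endoplasmic reticulum transcription factor for collagen genes, at 3.99 against 0.0557, the prolyl hydroxylase gene P3h1 at 4.03 against 0.172, and the lysyl hydroxylase gene Plod1 at 6.85 against 1.19. Mia3, which exports collagen from the endoplasmic reticulum, was not called, at 4.36 against 2.31.

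Matrix glycoproteins were higher for 17 of 22 genes and lower for 2 in suffix 1, and in suffix 2 higher for 13 of 18 tested and lower for 0. Tnc, the tenascin C gene, stood at 53.8 against 0.0351 and Svep1 at 10.4 against 0.00413. Igfbp5, which binds insulin-like growth factors, stood at 10.9 in the fibroblast name of suffix 1 and 1.61 in suffix 2. The lower ones in suffix 1 were Lamb3, a laminin chain of epithelial basement membrane, and Npnt, at 0 UMIs in the fibroblast name against a level of 0.280. Both were at 0 UMIs in the fibroblast name of suffix 2 and were not called there. All 4 proteoglycan genes were higher in suffix 1, among them Prelp at 5.55 against 0.00138 and the perlecan gene Hspg2 at 7.95 against 0.0922.

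The degradation list was divided. In suffix 1, 5 of its 12 genes were higher, 2 were lower and 5 were not called, and in suffix 2, 5 were higher and 4 lower. Serpine2, a protease inhibitor gene, stood at 31.3 against 0.165 and Mmp23 at 4.80 against 0.0107. Mmp9, the gelatinase of neutrophils and osteoclasts, was lower at 2.51 against 20.0, and Mrc1, a macrophage receptor for collagen fragments, at 0.487 against 3.10. Of 16 genes of fibroblast identity, 13 were higher in both suffixes, among them Prrx2, the paralog of Prrx1, at 3.45 against 0.000688, Dpt at 8.11 against 0.00138 and Grem1 at 10.3 against 0.00241. S100a4, often used as a fibroblast marker, was lower, at 5.41 against 33.4 in suffix 1 and 2.15 against 89.3 in suffix 2.

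Genes whose pattern over cell type names was most like the summed level of the 9 were ranked by Pearson's r of log2(level + 0.1) over the 23 names of suffix 1, among 3505 genes. The first 4 were Ccn5 (r = 0.98), Tnc (0.98), Ddah1 (0.98) and Zfhx4 (0.97), with 0.93, 0.91, 0.94 and 0.97 over 22 names of suffix 2. Dnm1, Inhbb, Ecrg4 and Mfap2 followed, at 0.96 to 0.97 in suffix 1 and 0.82 to 0.94 in suffix 2. The measure rests largely on the fibroblast name, since the levels elsewhere were near 0. Ccn5, a secreted matricellular protein gene, stood at 6.18 in the fibroblast name and 0.00894 in other cells of suffix 1.

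Among the chromosomal neighbours, Col3a1 and Col5a2 were the only adjacent pair both among the 9. Pef1, 3274 bases beyond Col16a1, stood at 1.03 in the fibroblast name against 0.780 in other cells of suffix 1, and Ifih1, 21722 bases beyond Fap, at 0.710 against 1.03. Gulp1, 514699 bases before Col3a1, had 41 UMIs in the fibroblast name and 0 in all other cells.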

How the data were processed

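The authors deposited a table of UMI counts per gene and cell, with whole numbers of 0 or more, and a cell type name for each of 45781 barcodes. The submitters' processing notes list Cell Ranger, Seurat and the mouse build GRCm38 (mm10) but give no roles, and how cell types were named is not stated there. The last gene row, 1 that was incomplete, was left out. Since genes beyond part of chromosome 5 were not analysed here, the counted UMIs of a cell are not its full depth, and their median was 1224.5 per cell in suffix 1 and 1712 in suffix 2.

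For each name and suffix, UMIs were summed over cells and divided by the summed counted UMIs, times 10000. Levels have exact Poisson intervals, ratios exact conditional binomial intervals, shares of cells Clopper-Pearson intervals and ratios to Col3a1 exact conditional odds ratios, all at 95%. UMIs of different genes were compared as ratios to Col3a1, and were summed over the members or over a marker list. Col3a1 held 28718 of the 40690 member UMIs in suffix 1 and 12079 of 16979 in suffix 2. Summed levels thus rest largely on Col3a1. Counts were not divided by transcript length, since counts from transcript ends do not scale with it. Calls needed 30 UMIs and an interval beyond 2-fold. The ratio procedure was tested on simulated data with 200 changed genes. Thinning drew 500 UMIs per cell. Doublets were neither called nor removed here and the labels are silent on them, so what part they have in cells with markers of another type was not tested.

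The members, the gene lists and the marker lists were chosen with earlier results of these data known. From each pathway list up to 6 genes with the highest and 2 with the lowest ratio could be named, and from the likeness ranking 8. Since the annotation may itself have used these genes, their level in the fibroblast name is no independent evidence for it. The deposited name itself carries the gene symbol Col1a2, which was not among the genes measured here. Results of 1 cell type name are not reported singly here. Software was matplotlib 3.10.9, scipy 1.17.1, pandas 2.3.3 and numpy 2.4.6 under Python 3.11.15.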

Additional observations from a re-analysis of the deposited data

How the results depend on the processing

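No paired analysis was possible because no label or header ties a barcode suffix to a numbered sample. The summed level of the 9 genes in the fibroblast name, 806 in suffix 1, was 891 in suffix 2, 827 without S100a8 and S100a9 in the counted UMIs, 818 over cells with 500 or more counted UMIs and 867 without cells rich in C1q or S100a8 and S100a9 UMIs. It was 893 without cells of the name holding other markers, an alternative chosen after seeing the data, and 284 as UMIs per cell, which is another unit. The share of its cells with a UMI, 81.4%, was 88.5% after thinning and 72.9% when 3 UMIs were asked for. The share of all UMIs of the 9 genes in the name, 97.7%, was 97.5% in suffix 2 and 95.4% without Col3a1. At a 4-fold limit 8 of the 9 genes were called against epithelial cells in place of 9. Under the other alternatives the counts of called members did not change, and the 77 alternatives for single genes kept direction and call. Without cells rich in C1q or S100a8 and S100a9 UMIs the log2 ratio to all other cells went from 6.82 to 9.21 for Fap, from 6.60 to 5.24 for Col16a1 and from 12.11 to 10.81 for Col6a3, and the cause was not tested. In suffix 2 it was 11.30 for Podn, 9.95 for Prrx1 and 10.51 for Postn, beside 13.96, 11.79 and 11.74 in suffix 1. With 1 sample per suffix and no replicate, the intervals cover counting error only, with 140 and 47 cells behind the fibroblast levels.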
